A study of Mus musculus with 8 samples.

Results

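The period, cryptochrome and other repressor genes of the circadian clock were examined in the colon of bone marrow chimeric mice. The 10 genes (Per1, Per2, Per3, Cry1, Cry2, Ciart, Bhlhe40, Bhlhe41, Csnk1d and Csnk1e) were taken by symbol from a table of 26008 genes, and all 10 were found. The recipients were male wild-type C57BL/6JRj mice, lethally irradiated at 7 weeks of age. They received bone marrow of donors aged 9 to 11 weeks that were either knocked out for proenkephalin (Penk-/-, B6.129 background) or wild-type littermates (Penk+/+). Both groups of 4 mice were thus irradiated and grafted and were fed chow, and 1 colon biopsy per mouse was sequenced 18 weeks after engraftment. The paper lists colon RNA sequencing in the same set of chimeras as its gut transit assay, which used gavage with Carmine in methylcellulose. Whether the sequenced mice had been gavaged is not stated. The deletion concerned only cells derived from the graft, and the epithelium, muscle and enteric neurons of the biopsies were those of wild-type recipients. The hour at which the biopsies were collected is not given in the sources used here, and whether it differed between the genotypes is not known, which bears on every gene that cycles over the day.

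The circadian clock is a feedback loop of transcription that runs in nearly every cell, the colonic epithelium and muscle included. The activators BMAL1 and CLOCK bind E-boxes and switch on the Per and Cry genes, whose proteins form complexes, are phosphorylated by casein kinases 1 delta and epsilon, enter the nucleus and inhibit the same activators. CIART (CHRONO) and the E-box binding repressors BHLHE40 (DEC1) and BHLHE41 (DEC2) also inhibit them, and a second loop made of REV-ERB repressors and ROR activators sets the level of Bmal1. The transcripts peak in a fixed order over the day, with Nr1d1 and Dbp ahead of the Per genes, Cry1 after them and Bmal1 opposite, whereas the kinase genes vary little.

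The promoters of the members are shown because clock factors act through short motifs there, and these differ between the members. RefSeq sequences (taken on GRCm38.p6) covering 250 bases before to 50 bases after a gene start were held for 7 of the 10 members, and none was held for Per2, Bhlhe40 and Csnk1d. The coordinates are those of the exact match on GRCm39, and capitals mark matches, on either strand, to 5 motifs. These were the E-box CACGTG, its variant CACGTT, the D-box TTANGTAA bound by DBP and its relatives, TNGGTCA, and the cAMP response element TGACGTCA. TNGGTCA is a loose form of the element bound by REV-ERB and ROR receptors, since any base was allowed at N.
Per1, chr11:68989525-68989824, strand +: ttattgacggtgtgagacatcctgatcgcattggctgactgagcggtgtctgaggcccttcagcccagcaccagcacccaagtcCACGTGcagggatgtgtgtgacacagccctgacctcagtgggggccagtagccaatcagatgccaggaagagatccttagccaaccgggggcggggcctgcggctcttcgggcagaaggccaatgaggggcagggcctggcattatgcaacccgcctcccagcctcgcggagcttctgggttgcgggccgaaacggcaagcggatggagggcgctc
Per3, chr4:151129073-151129372, strand -: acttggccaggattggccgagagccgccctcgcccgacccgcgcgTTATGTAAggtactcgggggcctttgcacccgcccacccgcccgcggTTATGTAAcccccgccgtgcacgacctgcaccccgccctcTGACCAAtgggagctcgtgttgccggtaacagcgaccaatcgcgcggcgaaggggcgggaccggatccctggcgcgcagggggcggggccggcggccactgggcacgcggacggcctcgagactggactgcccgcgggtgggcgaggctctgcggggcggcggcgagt
Cry1, chr10:85020869-85021168, strand -: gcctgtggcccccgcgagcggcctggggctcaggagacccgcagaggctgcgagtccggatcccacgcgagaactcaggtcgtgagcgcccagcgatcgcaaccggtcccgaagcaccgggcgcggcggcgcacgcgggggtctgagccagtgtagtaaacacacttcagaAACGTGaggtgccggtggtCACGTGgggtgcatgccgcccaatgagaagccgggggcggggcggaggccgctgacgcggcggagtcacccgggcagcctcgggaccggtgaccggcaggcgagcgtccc
Ciart, chr3:95789491-95789790, strand -: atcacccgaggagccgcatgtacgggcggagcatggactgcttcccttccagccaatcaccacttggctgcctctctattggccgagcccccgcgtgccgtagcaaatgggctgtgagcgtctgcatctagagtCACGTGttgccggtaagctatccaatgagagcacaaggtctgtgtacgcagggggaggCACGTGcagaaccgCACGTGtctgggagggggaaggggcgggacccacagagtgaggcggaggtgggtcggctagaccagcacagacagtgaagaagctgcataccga
Positions are counted along the printed strand from the gene start as 0. The Per1 promoter held 1 E-box at -166, and a second RefSeq start of Per1 held none of the 5 motifs. That of Cry1 held an E-box at -60 and the variant at -79. The Ciart promoter held 3 E-boxes, at -116, -58 and -44. Per3 held no E-box in this window but 2 D-boxes, at -205 and -158, and 1 match to TNGGTCA at -118. Bhlhe41 held 1 E-box at -153, and Cry2 held the variant at -166 and a match to TNGGTCA at -133. The matches of Per3 and Cry2 both read TTGGTCA on the opposite strand, and whether REV-ERB or ROR receptors bind them is not known. The 4 promoters held for Csnk1e had 0 matches to the 5 motifs. Among 32851 promoters of the same length, 7.15% held the E-box, 4.68% its variant, 2.32% the D-box, 11% TNGGTCA and 1.79% the cAMP response element. A match is only a description of letters, and binding was not measured in these mice.

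Each library was made from poly-A RNA, and the values are normalized counts, which are the reads of a gene divided by a size factor of the library. The reads counted on genes were 33.1 M to 50.7 M per library (median 38.5 M). The targeted gene Penk, to which recipient cells also contribute, had overlapping values (528.2 ± 67.46 against 541.4 ± 73.16 normalized counts in Penk-/- and Penk+/+ biopsies, SD, n = 4; limma adjusted p = 0.957). All 6 smooth muscle and all 7 epithelial markers examined were detected, and hematopoietic markers summed to between 6413 and 15270 normalized counts, with the highest sum in Penk-/- replicate 1. The markers of male accessory glands ranged from 54.17 to 217800 normalized counts, and were highest in Penk-/- replicate 3 and Penk+/+ replicate 4, so that results were also computed on the other 6 libraries. In bulk biopsies, fewer cells of a type and less RNA per cell cannot be told apart. Nothing in the labels describes a batch.

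The 10 members were first compared between genotypes. The question was whether the inhibitory arm of the clock differed in the colon of mice whose immune cells lacked enkephalins. Of the 10 genes, 0 passed an adjusted p below 0.05 with limma on log2(normalized count + 1), where 0.00% of the 19127 genes tested with a mean of at least 10 did so and the lowest adjusted p of any gene was 0.132. At an unadjusted p below 0.05, 1 member, Cry1, was counted, against 9.63% of all genes tested in either direction (1842 genes) and 4.30% in the direction of higher values in Penk-/- chimeras. None of the 10 had all 4 Penk-/- values on the same side of all 4 Penk+/+ values, a separation found in 5.63% of all genes tested (2.89% with Penk-/- above and 2.74% with Penk-/- below). On the reads of 7 libraries, without Penk-/- replicate 1, edgeR and DESeq2 also called 0 members at an adjusted p below 0.05, where they called 0.0261% and 1.90% of all genes. The share of DESeq2 is over 19143 genes and counts as not called the 4504 genes to which it gave no adjusted p. The log2 fold changes, given as Penk-/- minus Penk+/+, were above 0 for 6 members and below 0 for 4, with a median of 0.05, beside a median of 0.01 over all genes tested. All 10 members passed the filter on low values. With 4 mice against 4, the exact permutation test of a single gene can give no two-sided p below 0.0286.

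**Figure D1:**
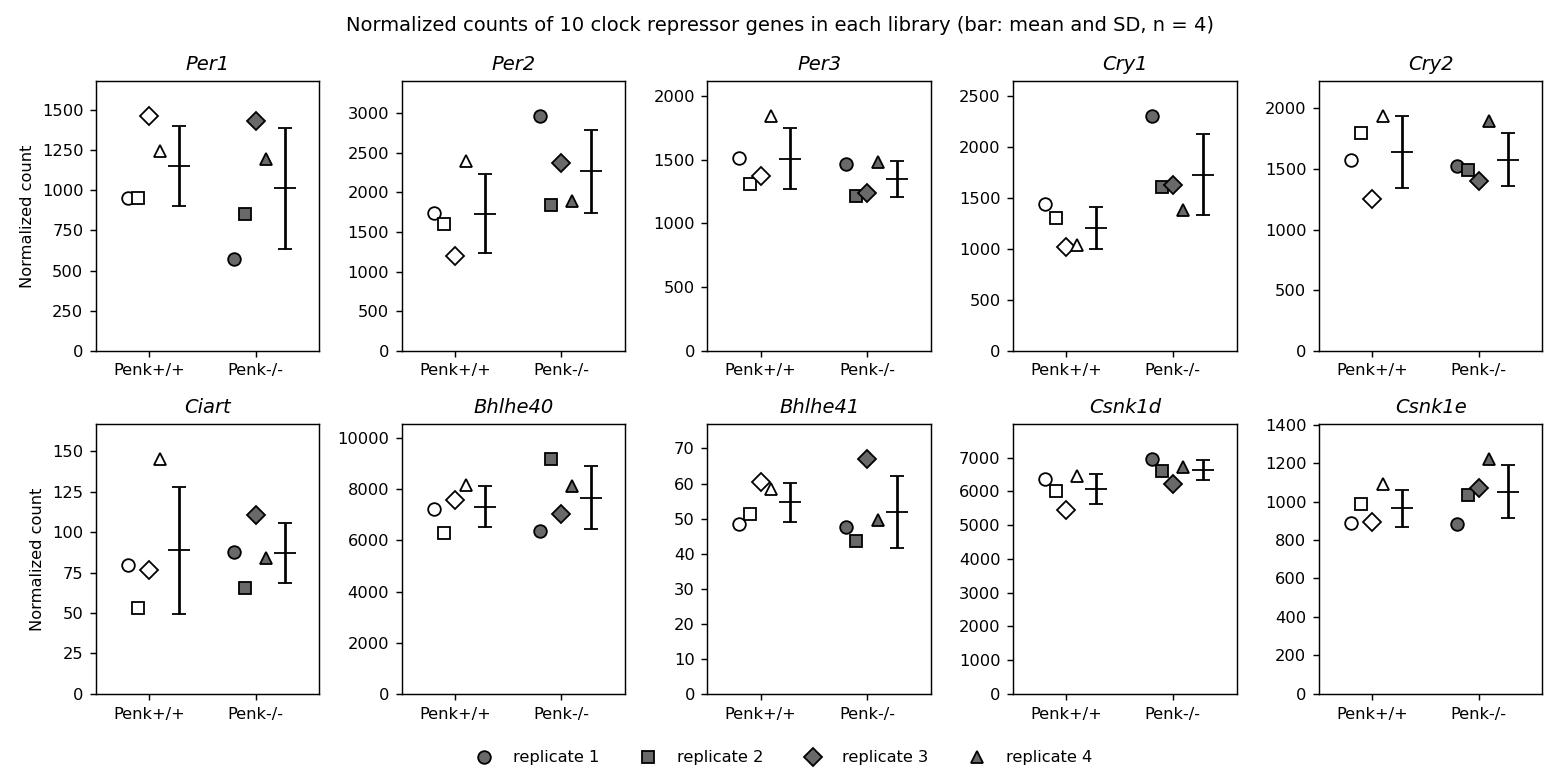
Normalized counts (y axis, from 0) of the 10 members in each library, with Penk+/+ chimeras as white and Penk-/- chimeras as gray symbols, the replicate number as the shape, and the mean and SD of 4 mice as bars. The groups overlap in all 10 panels, and the least overlap is seen for Cry1, where 1381 in Penk-/- replicate 4 lies below 1440 in Penk+/+ replicate 1.

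The period genes encode the PER proteins, the limiting parts of the inhibitory complex. Per1 (ENSMUSG00000020893, chromosome 11, 68986035 to 69002300, plus strand of GRCm39), which is also induced quickly by corticosteroids and by cAMP signals, had 574.6, 850.6, 1433 and 1195 normalized counts in Penk-/- replicates 1 to 4, and 952.1, 949.9, 1462 and 1243 in Penk+/+ replicates 1 to 4. Its values spanned 2.54-fold, and within each genotype replicates 3 and 4 held the highest values. The means were 1013 ± 377.7 and 1152 ± 248.3 (SD, n = 4 each), the log2 fold change was -0.24 with a 95% interval from -0.84 to 0.36, and the difference was within the spread between mice (limma adjusted p = 0.818, exact permutation p = 0.486). Without Penk-/- replicate 1, the lowest library, it was 0.002.

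Per2 (ENSMUSG00000055866, chromosome 1, 91343700 to 91387069, minus strand), the period gene whose loss disrupts rhythms most readily, had 2962, 1841, 2373 and 1887 normalized counts in Penk-/- and 1744, 1600, 1197 and 2391 in Penk+/+ chimeras. Penk-/- replicate 1, the lowest library for Per1, was the highest for Per2, and Penk+/+ replicate 3, the highest for Per1, was the lowest. The means were 2266 ± 522.7 and 1733 ± 496.2 (SD, n = 4 each), with a log2 fold change of 0.40 (95% interval -0.08 to 0.88, limma adjusted p = 0.592, exact permutation p = 0.171). Leaving out Penk+/+ replicate 4 gave a log2 fold change of 0.57 and separated the genotypes for this gene, a separation that 11.2% of all genes then showed. It was 0.24 without Penk+/+ replicate 3 and 0.265 without Penk-/- replicate 1.

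Per3 (ENSMUSG00000028957, chromosome 4, 151081373 to 151129140, minus strand), which is dispensable for the core oscillation, was steadier. It had 1465, 1212, 1240 and 1484 normalized counts in Penk-/- and 1511, 1312, 1375 and 1843 in Penk+/+ chimeras, a span of 1.52-fold with Penk+/+ replicate 4 on top. The means were 1350 ± 144 and 1510 ± 236.7 (SD, n = 4 each), and the log2 fold change of -0.15 had a 95% interval from -0.42 to 0.11 (limma adjusted p = 0.714, exact permutation p = 0.286).

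The cryptochromes bind the activators directly and are the strongest repressors of the loop. Cry1 (ENSMUSG00000020038, chromosome 10, 84967560 to 85021252, minus strand) had 2303, 1610, 1624 and 1381 normalized counts in Penk-/- and 1440, 1308, 1016 and 1043 in Penk+/+ chimeras. All values of Penk-/- chimeras but that of replicate 4 lay above every Penk+/+ value, and the highest library was again Penk-/- replicate 1. The means were 1730 ± 398.4 and 1202 ± 206.5 (SD, n = 4 each), a ratio of 1.43, and the log2 fold change of 0.51 had a 95% interval from 0.14 to 0.89. This was the largest fold change among the members in these 8 libraries, and it did not pass the adjustment over all genes (limma p = 0.012, adjusted p = 0.406; exact permutation p = 0.0571). Over the alternatives its log2 fold change lay between 0.36 and 0.61 and its adjusted p did not go below 0.14.

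Cry2 (ENSMUSG00000068742, chromosome 2, 92233894 to 92264474, minus strand), the paralog of Cry1 that peaks earlier and with a smaller amplitude, had 1523, 1489, 1403 and 1895 normalized counts in Penk-/- and 1577, 1795, 1252 and 1935 in Penk+/+ chimeras. Replicate 4 was the highest and replicate 3 the lowest in both genotypes. The means of 1577 ± 217.6 and 1640 ± 297.6 (SD, n = 4 each) gave a log2 fold change of -0.05 (limma adjusted p = 0.947, exact permutation p = 0.771).

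Ciart (ENSMUSG00000038550, chromosome 3, 95785815 to 95789991, minus strand) was measured with 56 to 169 reads in the 7 libraries used for the count tests. Its normalized counts were 87.85, 65.25, 110.5 and 83.97 in Penk-/- and 79.65, 53.25, 76.66 and 144.9 in Penk+/+ chimeras. The highest and the lowest library were both Penk+/+, replicates 4 and 2. The means were 86.89 ± 18.57 and 88.62 ± 39.34 (SD, n = 4 each), with a log2 fold change of 0.04 and a wide 95% interval, from -0.61 to 0.69 (limma adjusted p = 0.98, exact permutation p = 0.914). It changed sign when Penk+/+ replicate 2 was left out, to -0.167. Ciart shares 250 exon bases with C920021L13Rik on the opposite strand, and the strand setting of the counting is not given in the sources used here.

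Bhlhe40 (ENSMUSG00000030103, chromosome 6, 108636626 to 108644502, plus strand), which also answers to hypoxia, cytokines and nutrients, had 6349, 9164, 7037 and 8118 normalized counts in Penk-/- and 7233, 6274, 7589 and 8161 in Penk+/+ chimeras. The means were 7667 ± 1235 and 7314 ± 792 (SD, n = 4 each; log2 fold change 0.06, limma adjusted p = 0.914, exact permutation p = 0.714). Its paralog Bhlhe41 (ENSMUSG00000030256, chromosome 6, 145803969 to 145811430, minus strand) was far lower, with 47.46, 43.5, 66.87 and 49.72 normalized counts in Penk-/- and 48.54, 51.35, 60.3 and 58.31 in Penk+/+ chimeras. Replicate 3 was the highest in both genotypes. The means of 51.89 ± 10.31 and 54.62 ± 5.585 (SD, n = 4 each) gave a log2 fold change of -0.09 (limma adjusted p = 0.918, exact permutation p = 0.571). In the 7 libraries used for the count tests, 38 to 92 reads stood behind the values. Bhlhe41 shares 1583 exon bases with Gm43909 on the opposite strand, a gene for which no value was held. Per1, Per3, Cry2, Bhlhe40 and Csnk1e also share exon bases with genes on the opposite strand, at most 449 with any 1 gene.

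The casein kinases phosphorylate PER proteins and set the speed of the clock. Csnk1d (ENSMUSG00000025162, chromosome 11, 120843823 to 120882172, minus strand) had 6951, 6616, 6229 and 6727 normalized counts in Penk-/- and 6371, 6007, 5459 and 6445 in Penk+/+ chimeras. This was the steadiest member, with coefficients of variation of 4.55% and 7.42%. The means were 6631 ± 302 and 6070 ± 450.3 (SD, n = 4 each; log2 fold change 0.13, limma adjusted p = 0.591, exact permutation p = 0.0857). Csnk1d shares 4529 exon bases with Slc16a3 on the opposite strand, a gene with a mean of 828.1 normalized counts, so that reads of both genes may have been shared. Csnk1e (ENSMUSG00000022433, chromosome 15, 79302046 to 79339771, minus strand) had 884.6, 1033, 1068 and 1219 normalized counts in Penk-/- and 887.4, 985.1, 895.3 and 1091 in Penk+/+ chimeras. Its means of 1051 ± 137.2 and 964.6 ± 95 (SD, n = 4 each) gave a log2 fold change of 0.12 (limma adjusted p = 0.768, exact permutation p = 0.371).

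Levels of different genes were compared per kilobase of exon, as normalized counts divided by the length of the merged exons of the gene. Merged exons hold the bases of all annotated transcripts, with 12440 for Csnk1d, 11198 for Csnk1e and 10491 for Per3. A single transcript can be shorter, so that the order of the genes depends on this length too. In Penk+/+ chimeras, Bhlhe40 was the highest with 1150 ± 125 per kb, then Csnk1d with 488 ± 36.2, Per2 with 264 ± 75.6, Cry1 with 241 ± 41.5, Cry2 with 191 ± 34.7, Per1 with 150 ± 32.4, Per3 with 144 ± 22.6, Csnk1e with 86.1 ± 8.48, Ciart with 34 ± 15.1 and Bhlhe41 with 7.63 ± 0.78 (SD, n = 4). The SD ranges of the neighbours Per2 and Cry1, Cry1 and Cry2, Cry2 and Per1, and Per1 and Per3 overlapped, so that these neighbours were not set apart by their spread. In Penk-/- chimeras, Cry1 (347 ± 80 per kb) and Per2 (345 ± 79.6 per kb) were again level with each other. The variation between mice of a genotype was the largest for Ciart in Penk+/+ (coefficient of variation 44.4%) and for Per1 in Penk-/- chimeras (37.3%).

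**Figure D2:**
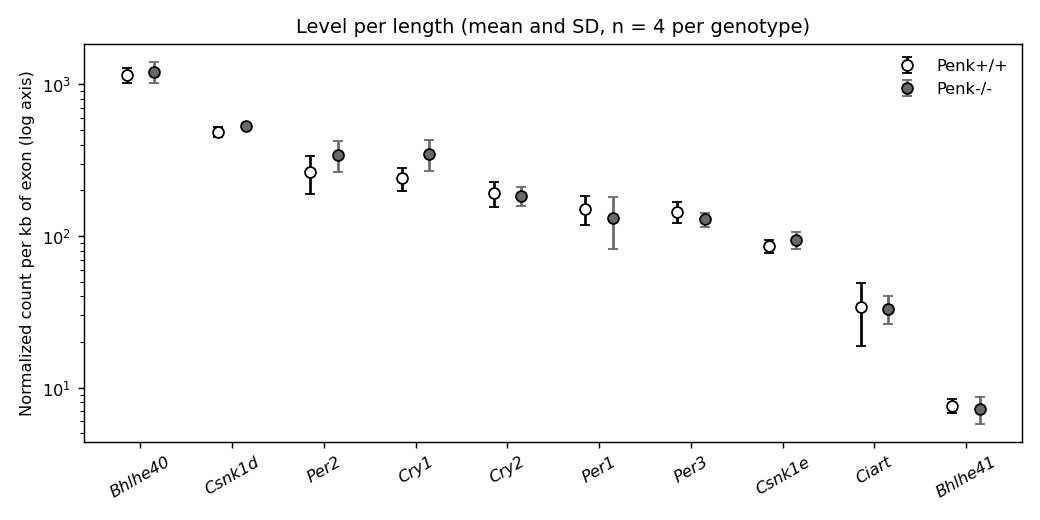
Mean normalized count per kilobase of merged exons (y axis, log scale) of the 10 members, with SD over 4 mice, in Penk+/+ (white) and Penk-/- chimeras (gray). Bhlhe40 lies highest in both genotypes and its paralog Bhlhe41 lowest, and Per2, Cry1, Cry2, Per1 and Per3 form a middle group between 129 and 347 per kb.

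The other genes of the clock were then counted by role, with the same fit. At an adjusted p below 0.05, 0 of the 28 other clock genes counted here passed with limma. Over all genes tested, the share with an unadjusted p below 0.05 was 9.63%, and 5.33% were lower in Penk-/- chimeras. The genotypes were separated in 5.63% of all genes tested, with Penk-/- below in 2.74%. Of the 4 activators (Bmal1, Bmal2, Clock and Npas2), 0 had an unadjusted p below 0.05. Bmal1 had 4221, 3610, 3067 and 3561 normalized counts in Penk-/- and 4268, 4262, 2996 and 3442 in Penk+/+ chimeras, a span of 1.42-fold with overlapping genotypes. Of the 4 REV-ERB and ROR genes counted here, 2 had an unadjusted p below 0.05, Nr1d1 and Nr1d2, both lower in every Penk-/- than in every Penk+/+ chimera. Nr1d1, the REV-ERB alpha repressor of Bmal1, had 911.8, 1916, 848.2 and 1742 normalized counts in Penk-/- and 3547, 3851, 4124 and 4311 in Penk+/+ chimeras (log2 fold change -1.64, limma adjusted p = 0.296). Of the 4 PAR bZIP genes and Nfil3, 1 had an unadjusted p below 0.05, Dbp, with a log2 fold change of -1.37 and separated genotypes (limma adjusted p = 0.323). Tef and Hlf, of the same family, overlapped between genotypes, with log2 fold changes of -0.39 and -0.32. DESeq2 on the reads of 7 libraries gave an adjusted p of 1.35e-06 for Nr1d1, 1.97e-05 for Nr1d2 and 0.00155 for Dbp. It called 1.90% of all genes there. With edgeR on the same reads, the adjusted p of Nr1d1, Nr1d2 and Dbp were 0.184, 0.173 and 0.25.

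Among the 16 genes counted here for turnover and partners of PER and CRY proteins, 1 was higher in Penk-/- chimeras at an unadjusted p below 0.05 and 0 were lower, where 4.30% and 5.33% of all genes tested were. The higher was Wdr5, a partner of PER complexes that is best known as a subunit of histone methyltransferases. It had 1853, 1803, 1998 and 1887 normalized counts in Penk-/- and 1623, 1612, 1648 and 1701 in Penk+/+ chimeras. All Penk-/- values lay above all Penk+/+ values, as in 2.89% of all genes tested. The log2 fold change of 0.20, with a standard error of 0.06, did not pass the adjustment (limma adjusted p = 0.353). The exact permutation p was 0.0286, the smallest possible. The median log2 fold change of the 16 genes was -0.02.

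**Figure D3:**
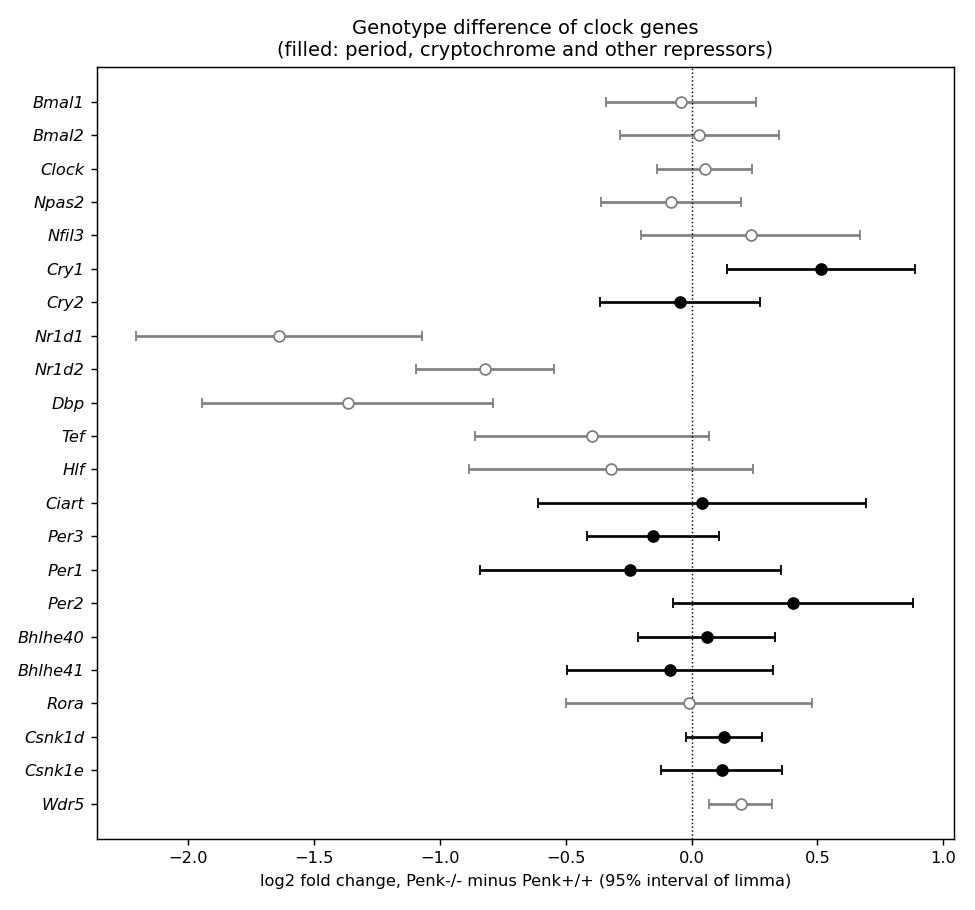
Log2 fold change (x axis, Penk-/- minus Penk+/+) with the 95% interval of limma for the 10 members (filled) and 12 other clock genes (open). Intervals of Nr1d1, Nr1d2 and Dbp lie below 0 and those of Cry1 and Wdr5 above it, before adjustment over all genes.

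The members were then set beside genes of known phase. Of the 10 genes placed on the side opposite to Bmal1 (Nr1d1, Dbp, Nr1d2, Ciart, Tef, Hlf, Per3, Bhlhe41, Per1 and Per2), 3 were lower at an unadjusted p below 0.05, none of which is a member, where 5.33% of all genes tested were lower. Relative to Nr1d1 in the same library, all 10 members were higher in every Penk-/- than in every Penk+/+ chimera, with differences of 1.39 (Per1) to 2.15 (Cry1) on the log2 scale. Nr1d1 itself separated the genotypes, and its choice was made with this known, so that 91.3% of all genes showed the same separation relative to it. Relative to Dbp, all 10 members were separated too, with differences of 1.12 to 1.88, as were 83.1% of all genes. Relative to Nr1d2, 8 of 10 were separated, against 71.6% of all genes, and the exceptions were Per1 (difference 0.58) and Ciart (0.86). These shares are a description, without a test.

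The order of the libraries differed between the members. Penk-/- replicate 1 was the highest of the 8 libraries for Per2, Cry1 and Csnk1d and the lowest for Per1 and Csnk1e. It was also the highest for Clock and the lowest for Nr1d2 and Hlf. Penk+/+ replicate 3 was the highest for Per1 and the lowest for Per2, Cry1, Cry2 and Csnk1d, and it was the lowest for Bmal1 as well. Penk+/+ replicate 4 was the highest for Per3, Cry2 and Ciart, together with Nr1d1, Dbp, Tef, Hlf and Usp2. The first of these libraries had the highest hematopoietic marker sum (15270), the lowest smooth muscle sum (142700) and 0 Pbsn, the second also had 0 Pbsn, and the third had the highest accessory gland sum (217800). Their part in the order was not tested.

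**Figure D4:**
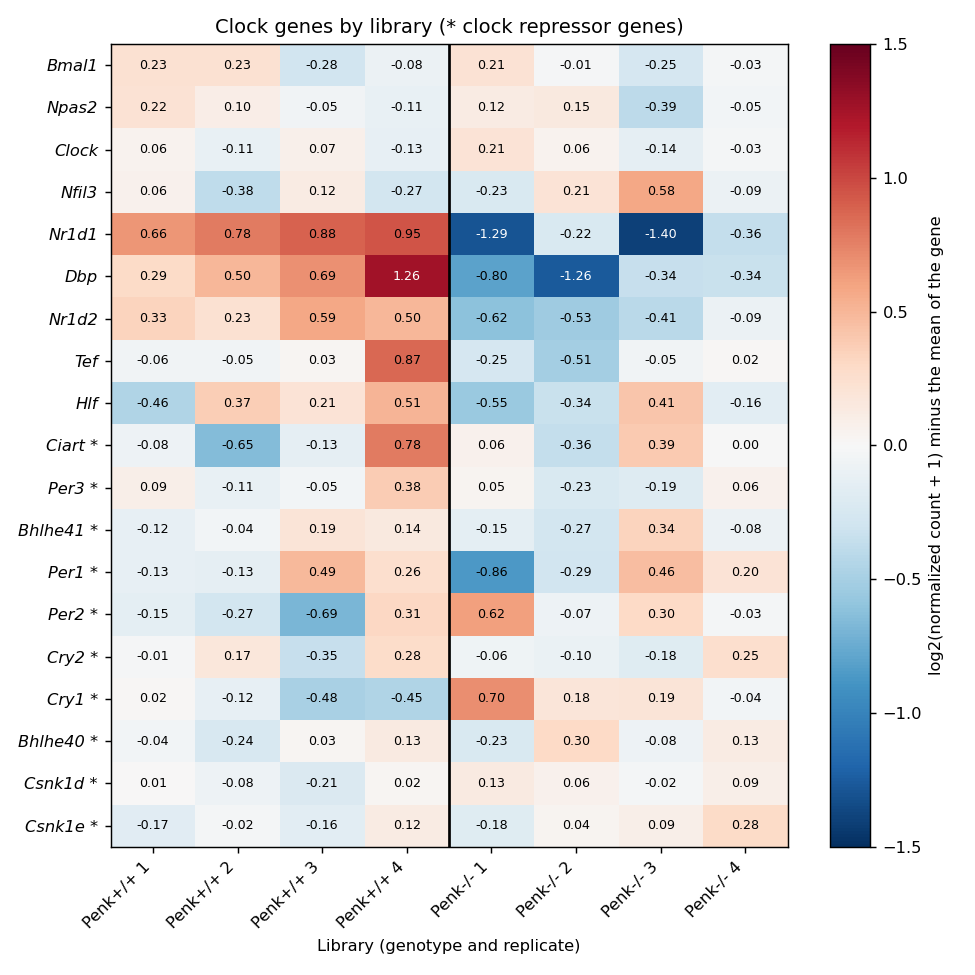
Deviation of log2(normalized count + 1) from the mean of the gene (colour and number) for 19 clock genes (rows, by known phase, then Bhlhe40 and the kinases) in 8 libraries (columns), with members starred. Rows of Nr1d1, Dbp and Nr1d2 split by genotype at the black line, while the rows of the members do not.

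Since Bmal1 did not separate the genotypes, the members were related to Bmal1 over the 8 libraries, in 10 relations. Per1 ran opposite to Bmal1, with Pearson r = -0.799 (exact permutation p = 0.0158, adjusted p = 0.158 over the 10 relations) and Spearman rho = -0.786 (exact permutation p = 0.0279, adjusted p = 0.279). Both Penk+/+ replicate 3 and Penk-/- replicate 3 had little Bmal1 and much Per1. Without Penk+/+ replicates 1 and 3, the libraries farthest from the median of Bmal1, r was -0.800 (exact permutation p = 0.0597), and in the 6 libraries with less Pbsn it was -0.728 (exact permutation p = 0.103). With both genes centred on the mean of each genotype and pairings permuted within genotype, r was -0.874 (exact permutation p = 0.00347, adjusted p = 0.0347), and this was the 1 relation of 10 that passed. Over 8 libraries without centring, 0 of 10 passed, and 1.31% of the other genes tested had an r with Bmal1 as low as that of Per1 or lower.

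Bhlhe41 also ran opposite to Bmal1 (r = -0.715, exact permutation p = 0.05, adjusted p = 0.25; rho = -0.690, exact permutation p = 0.0694, adjusted p = 0.347), and 4.06% of the other genes reached such an r. Cry1 tended the other way, with r = 0.456 (exact permutation p = 0.259, adjusted p = 0.426; rho = 0.333, exact permutation p = 0.428) over all libraries and 0.787 when centred within genotype (exact permutation p = 0.0469, adjusted p = 0.156). Per2, which peaks close to Per1 in the day, had r = 0.229 (exact permutation p = 0.593, adjusted p = 0.659; rho = -0.048, exact permutation p = 0.935). The other 6 members had r between -0.446 and 0.471, with adjusted p of at least 0.426 by exact permutation.

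**Figure D5:**
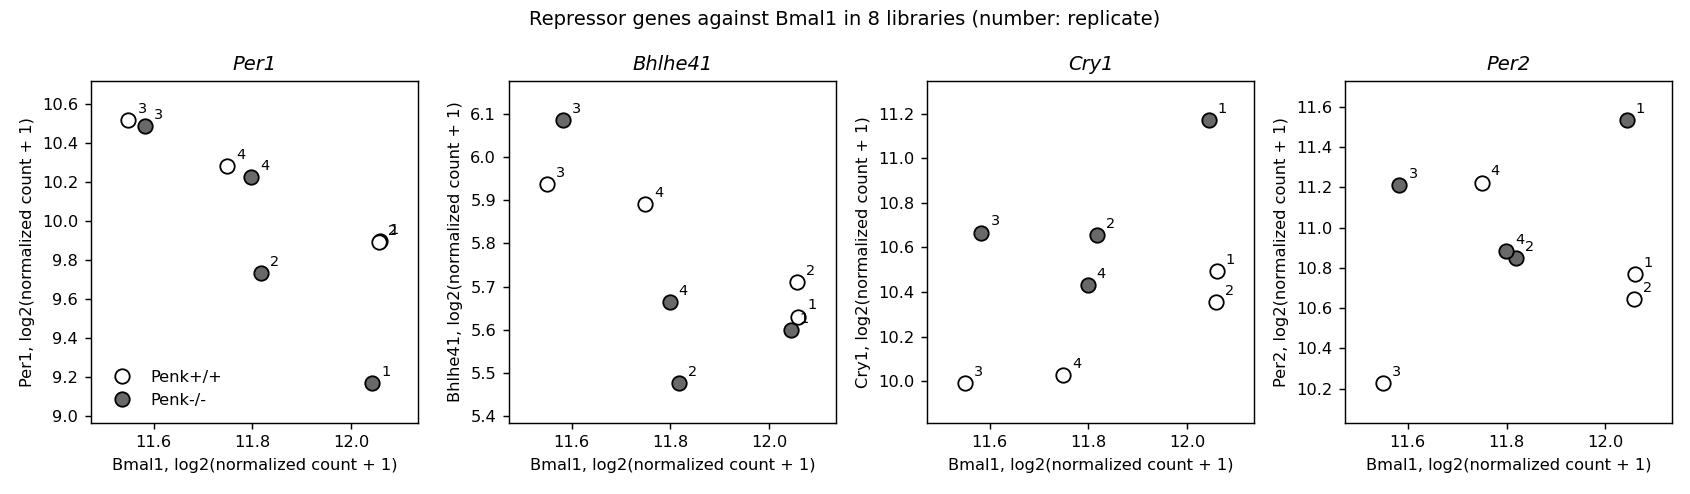
Per1, Bhlhe41, Cry1 and Per2 (y axes) against Bmal1 (x axes), all as log2(normalized count + 1), in 4 Penk+/+ (white) and 4 Penk-/- chimeras (gray), numbered by replicate. Per1 and Bhlhe41 are lower where Bmal1 is higher (r = -0.799 and -0.715), the Penk-/- points of Cry1 tend to lie above the Penk+/+ points, and Per2 shows no common slope (r = 0.229).

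The members were also related to each other, over all 45 pairs, and 0 pairs passed after adjustment, by Pearson or by Spearman correlation. At an unadjusted p below 0.05, 3 pairs were counted. Per1 and Bhlhe41 had r = 0.777 (exact permutation p = 0.021, adjusted p = 0.433; rho = 0.881) and r = 0.895 without the 2 libraries farthest from the median of Per1. Per2 and Csnk1d had r = 0.793 (exact permutation p = 0.0192, adjusted p = 0.433) and Per1 and Cry1 r = -0.762 (exact permutation p = 0.0289, adjusted p = 0.433). Both of the latter rested on Penk-/- replicate 1 and Penk+/+ replicate 3, since r was 0.166 and -0.176 without them. Per1 and Per2 had r = -0.459 over all libraries and 0.814 without these 2 libraries (exact permutation p = 0.254 and 0.0611).

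The genes whose pattern over the 8 libraries was most like that of a member were mostly not clock genes. Of the 100 genes with the highest r to each member among all tested, those of Per3 included 1 of the other clock genes counted here, Usp2, a deubiquitinase that is itself a clock-controlled gene, and those of the other 9 members included none. The closest gene was Ubqln1 for Per2 (r = 0.969), Rpl22l1 for Cry1 (0.974), Gm42047 for Per1 (0.953), Hyi for Per3 (0.951), Nyap1 for Cry2 (0.980), Gcdh for Ciart (0.966), Itga7 for Bhlhe40 (0.973), Chst7 for Bhlhe41 (0.975), Atxn7l3 for Csnk1d (0.987) and Clu for Csnk1e (0.966). The gene at rank 100 still had an r of 0.779 (Bhlhe40) to 0.91 (Csnk1d), and these values are given as a description.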

How the data were processed

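Gene expression was measured by RNA-seq in colon biopsies of 8 chimeric mice. The authors aligned and quantified reads with STAR 2.7.8a on GRCm39 with an Ensembl annotation and normalized them with DESeq2 1.30.0; the deposited values are a signal per gene, normalized counts that the authors obtained by dividing read counts by a size factor. In all 8 libraries each value was a whole multiple of 1 step (100% within a tolerance of 0.01), which gives the depth. The depth per library (33.1 M to 50.7 M reads) leaves the spread between mice as the main error for well-covered genes. Of 26008 identifiers, 25776 were matched to symbols, and no 2 libraries were as close as sampling noise (lowest chi-square per degree of freedom 11.17).

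The comparison of genotypes used limma 3.58.1 under R 4.3.3 (two-sided; lmFit, eBayes with trend) on log2(value + 1) for 19127 genes with a mean of at least 10, with Benjamini-Hochberg adjustment over all of them. The pseudocount of 1 understates the change of low genes. Tests with edgeR 4.0.16 and DESeq2 1.42.0, planned for all libraries, were run on 7, a change made after seeing the data: the step of Penk-/- replicate 1 lay too near 1 for the rule on recovered reads to accept it. Single genes were tested by exact permutation over 70 assignments, and correlations over all 40320 pairings of 8 libraries, or 576 within genotype. The labels number the mice within a genotype, and nothing states that they are separate litters or batches. The limma test was tested on simulated data. The members, gene lists and alternatives were chosen with earlier results of these data known. All members were named with each library's value, other clock genes by role (2 listed genes are not reported here and were left out of the counts by role), and the genes most like a member by Pearson r. Alternatives were pseudocounts of 0.1 or 8, a minimum mean of 50 or none, a fit with no trend, a block for the replicate number, quantile normalization, each replicate left out and the 6 libraries with less Pbsn. Pairs of members, ratios, and the Bmal1 relations in 6 libraries were added after seeing the data. Python 3.11.15 with scipy 1.17.1 was used for the permutations.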

Additional observations from a re-analysis of the deposited data

How the results depend on the processing

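Of the 10 members, 0 passed an adjusted p below 0.05 in the 18 other settings, with adjusted p from 0.14 to 0.998. Over all genes, the count at an adjusted p below 0.05 was 1 with quantile normalization, 1 with the replicate block, 0 to 6 when a replicate was left out (6 without Penk-/- replicate 1), 5 with edgeR (0.0261%) and 363 with DESeq2 (1.90%) on 7 libraries, where Nr1d1, Nr1d2 and Dbp passed with DESeq2; DESeq2 gave no adjusted p for 4504 genes. The count of separated members, 0 in all 8 libraries, was 0 to 1 when a replicate was left out (Cry1 without Penk-/- replicate 4 or Penk+/+ replicate 1, where 7.83% and 8.41% of all genes separated, Csnk1d without Penk-/- replicate 3, with 8.74%, and Per2 without Penk+/+ replicate 4, with 11.2%) and 2 in the 6 libraries with less Pbsn (Per2 and Csnk1d), where 15.4% of all genes separated. The relations with Bmal1 that passed were 1 with centring within genotype. Of 180 log2 fold changes of members, 167 kept their sign. The 13 that did not were those of Per1 (0.002 without Penk-/- replicate 1, 0.021 with edgeR, 0.011 with DESeq2), Ciart (-0.080 without Penk-/- replicate 3, -0.167 without Penk+/+ replicate 2, -0.020 with edgeR, -0.030 with DESeq2), Cry2 (0.007, 0.003 and 0.039 without Penk-/- replicate 3, Penk+/+ replicate 2 or Penk+/+ replicate 4, 0.093 in the 6 libraries) and Bhlhe40 (-0.030 and -0.011 without Penk-/- or Penk+/+ replicate 2). The edgeR and DESeq2 fits also left out Penk-/- replicate 1, as did the limma fit that gave 0.002 for Per1. The cause was not tested. Leaving out a replicate gave ranges of -0.437 to 0.002 for Per1, -0.170 to 0.039 for Cry2, -0.167 to 0.308 for Ciart and -0.030 to 0.146 for Bhlhe40. Among those that kept their sign, it gave 0.24 to 0.57 for Per2, -0.22 to -0.055 for Per3 (-0.055 without Penk+/+ replicate 4, and -0.016 in the 6 libraries), -0.212 to -0.009 for Bhlhe41 (without Penk-/- replicates 3 and 2), 0.08 to 0.16 for Csnk1d (0.08 without Penk+/+ replicate 3) and 0.045 to 0.199 for Csnk1e (without Penk-/- replicates 4 and 1). The deviations of mice with equal replicate numbers correlated by 0.127, -0.045, -0.406 and -0.152. Only Penk+/+ replicate 1, of the 8 libraries, correlated best with its own number. The highest correlation, 0.641, joined Penk-/- replicate 3 and Penk+/+ replicate 4, the libraries highest in accessory gland markers. Tissue content may thus mask a pairing, and whether equal numbers pair the mice was not decided. With the replicate block, 2938 genes had an unadjusted p below 0.05 with limma, against 1842 without it. Among the members these were Cry1, Csnk1d and Per3 with the block and Cry1 without it. The replicate block changed no call of a member at an adjusted p below 0.05. Ciart and Bhlhe41 rested on the fewest reads.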

Other observations

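Genes that respond to signals able to induce Per1, Per2 or Bhlhe40 within hours were counted beside them. The signals themselves were not measured, and the member Per1 is itself on the corticosteroid list. Of 6 corticosteroid-responsive genes, Klf9 had an unadjusted p below 0.05 and was lower in every Penk-/- chimera (log2 fold change -0.31, limma adjusted p = 0.339), while Fkbp5, Tsc22d3, Zbtb16, Sgk1 and Per1 overlapped between genotypes. Of 7 immediate early genes, Junb had an unadjusted p below 0.05 (log2 fold change -0.89, limma adjusted p = 0.341), and its genotypes overlapped. Of 5 heat shock genes, 0 had an unadjusted p below 0.05, and of 5 hypoxia genes 2 had an unadjusted p below 0.05, Vegfa (log2 fold change -0.20, limma adjusted p = 0.408) and Egln3 (log2 fold change -0.46, limma adjusted p = 0.504), with overlapping genotypes for both. Of all genes tested, 9.63% had an unadjusted p below 0.05, 5.33% with lower values in Penk-/- chimeras. In 2.74% of them, every Penk-/- value lay below every Penk+/+ value.

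Single libraries stood at the top or the bottom for several of these genes. Penk-/- replicate 2, the highest library for Bhlhe40, was also the highest for Fos (20270 normalized counts), Fosb, Egr1, Nr4a1, Ier2 and Dusp1. Junb, of the same list, was highest in Penk+/+ replicate 3 (7160) and had 4436 in Penk-/- replicate 2. Penk-/- replicate 1, the lowest library for Per1, was the lowest for Fosb, Egr1, Dusp1, Hspa1a, Hspa1b and Hspb1. The other genes of these lists were lowest elsewhere. Fos, Junb and Ier2 were lowest in Penk-/- replicate 3, Nr4a1 and Hsph1 in Penk+/+ replicate 1, and Dnajb1 in Penk-/- replicate 2. Penk+/+ replicate 4, the highest for Per3, Cry2 and Ciart, was the highest for the corticosteroid-responsive genes Fkbp5 (3587), Tsc22d3 (2903) and Zbtb16 (911.5). Of the same list, Klf9 and Per1 were highest in Penk+/+ replicate 3 and Sgk1 in Penk-/- replicate 4. Penk+/+ replicate 4 also had the highest accessory gland sum (217800). The part of these genes and of tissue content in the order of the clock genes was not tested.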
